A study of Mus musculus with 6 samples.

Results

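The genes of neuronal outgrowth described here, Gap43, Sncg, Nefl, Nefm, Nrn1, Thy1, L1cam, Igfbpl1, Cntn2 and Nrcam, were followed through the cell types of the embryonic mouse retina in 3 genotypes. They were taken by name as genes of ganglion cell axons and neurofilaments, with earlier results of these data known. They are 10 of the 27998 genes in the count matrix. All retinas were taken at embryonic day 14, and the RNA of single cells was read from the 3' ends of transcripts with droplet capture (10x Genomics v2 chemistry). Per the labels, 1 group was heterozygous for a Bax mutation and null for Atoh7, 1 was null for Bax with wild-type Atoh7, and 1 was null for both genes. They are called here by their genotype labels, Atoh7 mutants, Bax mutants and double mutants, in that order, with 2 libraries each. Every group carried at least 1 mutant allele of Bax, so no group analysed here had both genes intact. The labels do not say how many embryos each library came from or how the alleles were made, and p-values therefore measure only the spread between libraries. Expression was summed per library over the cells that the authors had labelled as ganglion cells, neurogenic cells, retinal progenitor cells, cones or horizontal cells.

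Retinal ganglion cells are the output neurons of the retina and are among the first neurons it makes. Soon after their last division they send an axon towards the optic nerve, and the axon is built from neurofilaments and microtubules, steered by a growth cone and held in bundles by adhesion molecules. Atoh7 is a transcription factor of the basic helix-loop-helix family that progenitors need to form most ganglion cells, and Bax is an effector of programmed cell death that normally removes many young ganglion cells. Among the 10 genes, Nefl and Nefm encode the light and medium neurofilament subunits, and Gap43 encodes a protein of the inner face of the growth cone membrane. Sncg encodes gamma-synuclein, a soluble protein of neurons that is used as a ganglion cell marker. L1cam, Cntn2 and Nrcam encode adhesion molecules of the immunoglobulin superfamily, Nrn1 and Thy1 encode small proteins anchored to the outer membrane by a lipid, and Igfbpl1 encodes a secreted protein related to the insulin-like growth factor binding proteins.

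In GRCm38, Nefl and Nefm are neighbours on chromosome 14, which also carries Sncg (34370274 to 34374789, minus strand). Gap43 lies on chromosome 16 (42248442 to 42340651, minus strand), Cntn2 on chromosome 1 (132509427 to 132543256, minus strand), L1cam on chromosome X (73853778 to 73896105, minus strand) and Igfbpl1 on chromosome 4 (45809468 to 45826923, minus strand). Nrn1 lies on chromosome 13 (36725361 to 36735131, minus strand), Nrcam on chromosome 12 (44328885 to 44601964, plus strand) and Thy1 on chromosome 9 (44043384 to 44048579, plus strand). Nefl (ENSMUSG00000022055, positions 68083863 to 68089095, plus strand) lies within the span of Nefm (ENSMUSG00000022054, 68082590 to 68124846, minus strand), and 1108 exon bases are shared by the annotated transcripts of the pair. Nrn1 and L1cam share 501 and 100 exon bases with other genes. Whether the counting used strand is not given in the sources used here, so whether reads from these shared bases were kept apart is not known. The remaining 6 genes share no exon bases with another gene.

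Of the 10 genes, 4 matched the RefSeq promoter table of GRCm38.p6. The 250 bases before the start of transcription in RefSeq are printed for these because the first 3 genes differed between genotypes in ganglion cells and the last did not. Capitals mark 2 motifs, searched on both strands: CANNTG, the core recognised by basic helix-loop-helix factors such as Atoh7, and TAAT, a core recognised by many homeodomain factors, among them those of ganglion cells.
Sncg, chr14:34374670-34374919, minus strand: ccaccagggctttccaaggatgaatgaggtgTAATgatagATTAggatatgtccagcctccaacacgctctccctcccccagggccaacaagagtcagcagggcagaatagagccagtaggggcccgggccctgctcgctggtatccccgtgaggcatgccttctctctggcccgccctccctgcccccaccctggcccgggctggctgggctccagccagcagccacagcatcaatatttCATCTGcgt
Cntn2, chr1:132542941-132543190, minus strand: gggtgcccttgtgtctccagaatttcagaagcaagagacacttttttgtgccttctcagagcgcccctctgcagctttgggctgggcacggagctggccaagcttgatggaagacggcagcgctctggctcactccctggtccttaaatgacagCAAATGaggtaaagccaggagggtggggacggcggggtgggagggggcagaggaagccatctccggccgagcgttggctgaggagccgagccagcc
L1cam, chrX:73880791-73881040, minus strand: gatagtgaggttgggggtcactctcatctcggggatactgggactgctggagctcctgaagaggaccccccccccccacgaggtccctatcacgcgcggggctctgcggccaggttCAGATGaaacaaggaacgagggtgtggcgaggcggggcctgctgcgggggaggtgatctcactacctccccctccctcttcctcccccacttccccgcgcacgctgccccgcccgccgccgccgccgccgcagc
Nrcam, chr12:44328635-44328884, plus strand: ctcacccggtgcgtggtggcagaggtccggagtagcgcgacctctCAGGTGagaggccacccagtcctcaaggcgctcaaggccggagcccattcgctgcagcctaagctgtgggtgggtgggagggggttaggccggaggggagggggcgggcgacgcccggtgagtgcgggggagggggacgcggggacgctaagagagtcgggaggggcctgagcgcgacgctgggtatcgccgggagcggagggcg
L1cam has a second listed start, whose window is not printed and held 2 matches to CANNTG. Each printed window held 1 match to CANNTG, and the Sncg window also held 2 matches to TAAT, while the other windows held 0. Of all 32851 promoter windows of this length, 66.2% held CANNTG and 54.9% held TAAT. The RefSeq starts of Sncg, Cntn2 and L1cam lie inside the gene spans given above, so these windows, the first in part, differ from the bases before the outermost start of that annotation. A match is a description of the letters and not a binding site.

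The 6 libraries held 9269 to 14730 cells and 22463515 to 66594431 UMIs (unique molecules counted). Both Bax mutant libraries were deeper than the others, with a median of 5660.5 and 6804 UMIs per cell against 1634 to 2632, and they stood apart in the share of mitochondrial UMIs, which was 3.80% and 3.90% against 1.06% to 1.15%. A library batch and the genotype can therefore not be told apart in any comparison with the Bax mutants, because the split runs between the groups compared and leaves no comparison inside either side. Atoh7 had 376 and 458 UMIs in the Bax mutant libraries and 0 in the other 4. Bax stood at 143.5 and 107.7 CPM (UMI counts, rescaled so that all libraries have the same total) in Atoh7 mutants, 17.1 and 14.99 in Bax mutants, and 47.7 and 10.996 in double mutants, so the library labelled double mutant replicate 1 went partly against its label. The mitochondrial gene mt-Atp6 split the libraries as depth did, at 8740 and 9020 CPM in Bax mutants and 3.74 to 4.55 in the other 4. The 2 double mutant libraries shared 2596 cell barcodes, or 17.6% and 22.0% of their cells, whereas any other pair of libraries shared 126 to 223. Of the shared barcodes 89.4% had the same cell type in both libraries, and their UMI totals stood in a narrow ratio (median 0.380, quartiles 0.372 and 0.390). Levels, shares of cells and changes without these cells are given beside the genes for which they altered an order, an overlap or a call.

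The first question was where in the retina the 10 genes were expressed. Of the 10, 8 were highest in ganglion cells in all 3 genotypes, and the other two, Nrcam and Thy1, went against the name of the list. The scale is CPM within the cell type, divided by a factor for each library (TMM, a trimmed mean of log ratios), and levels are not compared between genes because 3' counts are not per length. These levels are a description, without a test, since the authors' labels were made from the same cells. Within the Bax mutant group, Sncg stood at 2735 and 3071 CPM in ganglion cells against 37.8 and 43.8 in the next type, the cells labelled horizontal. Nefl stood at 1876 and 1854 CPM in Bax mutant ganglion cells against 59.4 and 51.4 in horizontal-labelled cells. L1cam was less restricted, with 87.7 and 101.9 CPM in Bax mutant ganglion cells and 15.5 in both cone samples.

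The mean in ganglion cells exceeded that of the next type by 34.2, 71.2 and 32.1 times for Sncg in Atoh7 mutants, Bax mutants and double mutants. The same ratio was 7.48, 12.2 and 7.26 for Gap43, 13.7, 33.7 and 14.9 for Nefl, and 9.79, 27.5 and 12.8 for Nefm. It was 23.0, 13.1 and 29.7 for Cntn2, 8.77, 11.7 and 8.48 for Igfbpl1, 2.68, 4.54 and 6.09 for Nrn1 and 2.92, 6.11 and 2.68 for L1cam. In each of these 24 cases the ganglion samples lay above both samples of the next type. Further down the order some neighbours overlapped, such as horizontal-labelled cells and cones for Gap43 in Atoh7 mutants and in Bax mutants. Among these 8 genes, Igfbpl1 alone had neurogenic cells in second place, in the Atoh7 null groups, at 76.7 and 74.97 CPM in Atoh7 mutants and 72.3 and 71.3 in double mutants, and in the latter group the cones overlapped them.

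**Figure D1:**
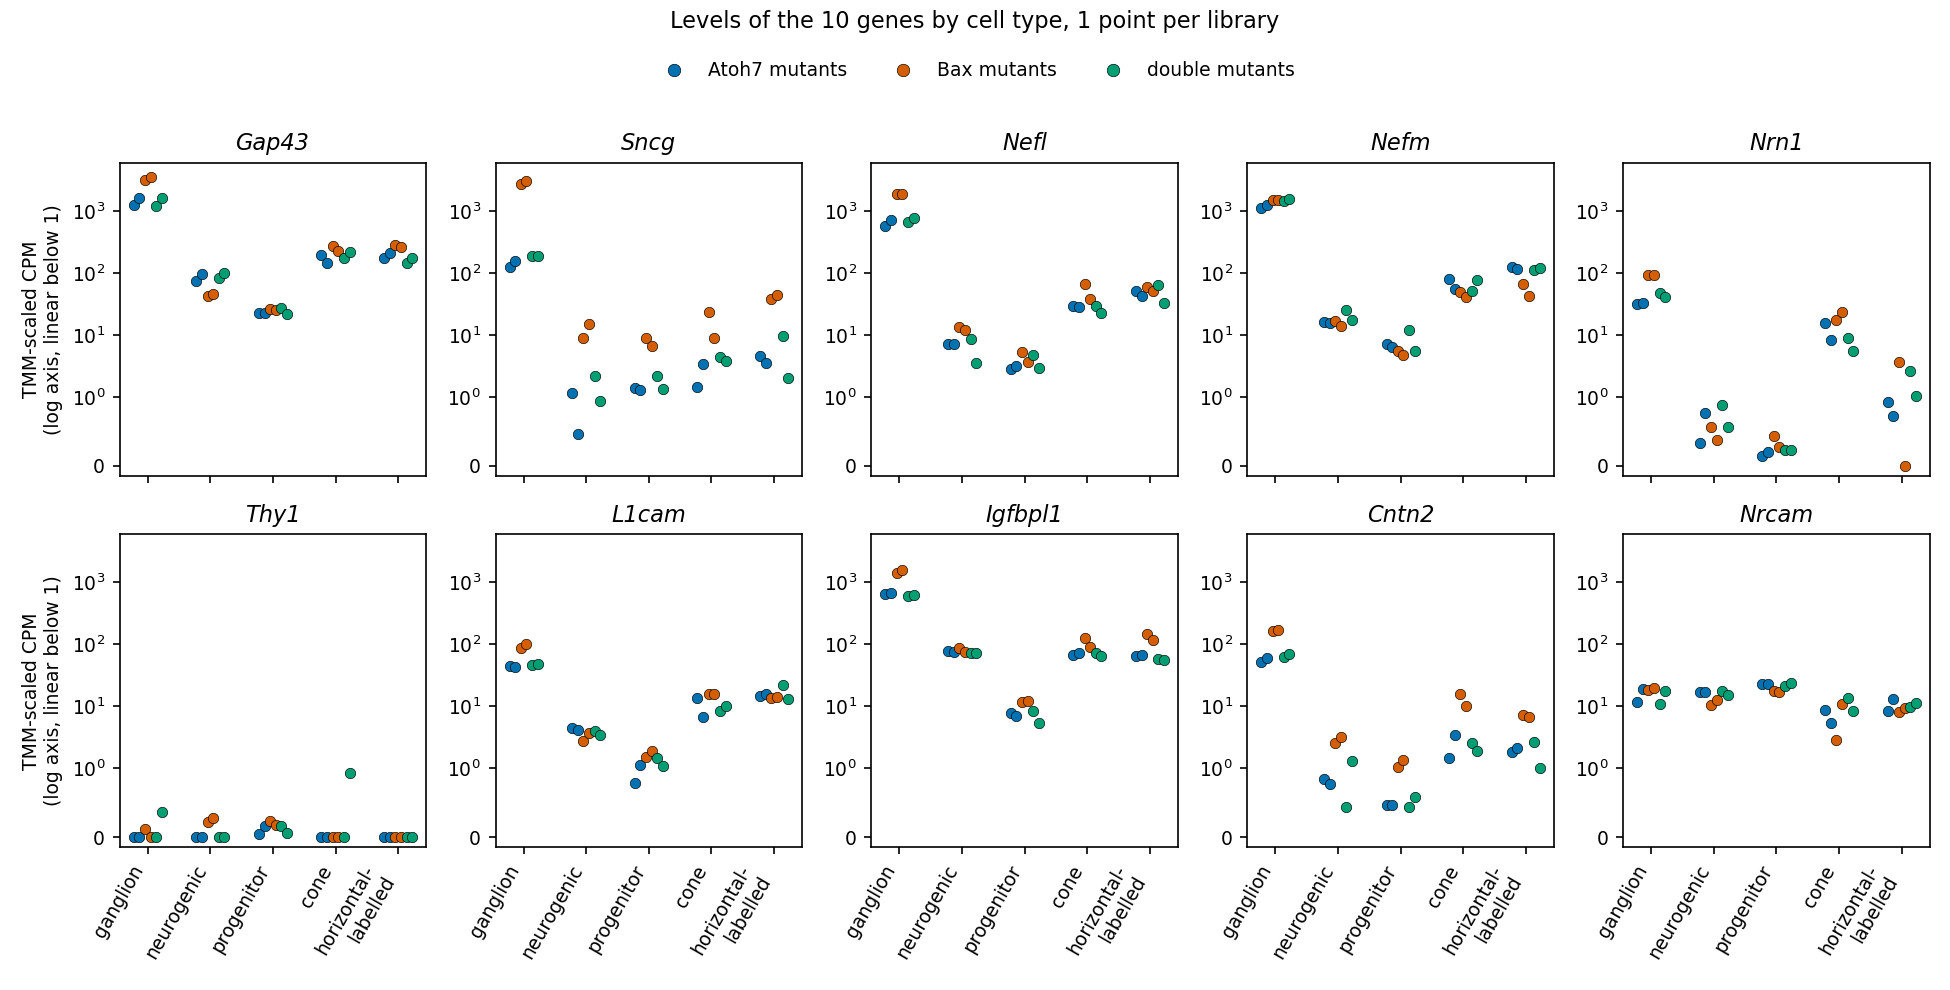
TMM-scaled CPM (log axis, linear below 1) of each gene in the 5 cell types, 1 point per library, coloured by genotype. The points of 8 genes stand highest in ganglion cells, whereas Nrcam is similar in ganglion, neurogenic and progenitor cells and Thy1 stays near 0.

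Nrcam, which binds ankyrin inside the cell and other adhesion molecules outside it, was spread over the cell types. Its level in retinal progenitor cells was 23.3 and 23.1 CPM in Atoh7 mutants, 18.0 and 16.9 in Bax mutants and 20.995 and 23.9 in double mutants. In ganglion cells it was 11.9 and 19.3, 18.2 and 19.4, and 10.99 and 17.8 CPM in the same order. Progenitors were thus first in both Atoh7 null groups and ganglion cells in Bax mutants, by 1.08 times. Thy1, the classical surface marker of adult ganglion cells, had 29 UMIs in all 6 libraries together and 2 of them in ganglion cells. Ganglion cells of 4 libraries had 0 Thy1 UMIs, where 3 UMIs (a count that 0 still allows) would be 0.358 to 1.43 CPM. Thy1 was below the filter on low counts in every cell type and was not tested.

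Because ganglion cells are a minority, these levels translate into a large share of each gene's molecules. Ganglion cells made up 6.93% and 9.31% of the cells in Atoh7 mutants, 17.3% and 16.9% in Bax mutants, and 7.83% and 9.63% in double mutants. They held 85.5% to 98.4% of all Sncg UMIs of a library, 65.6% to 94.4% of Gap43 and 54.6% to 87.8% of L1cam, in each case with both Bax mutant libraries highest. For Nrcam the share was 3.83% to 19.9%.

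The second question was how the genes differed between genotypes within ganglion cells. In the ganglion cells of double mutants compared with those of Bax mutants, groups whose labels differ in Atoh7, 7 of the 9 tested genes fell and 0 rose. In this comparison edgeR called 52.7% of the 10586 genes tested, 26.5% as lower and 26.2% as higher, so a call by itself was common. The genes were chosen with earlier results known, so their count is not that of a list independent of these data. The median log2 fold change of the 9 genes was -1.23, beside 0.02 over all genes. For Atoh7 mutants compared with Bax mutants 8 of the 9 fell and 0 rose, with 50% of all genes called, 25% in each direction, and medians of -1.20 and 0.01. These comparisons share the Bax mutant libraries and are not independent of each other. All p-values are from edgeR's quasi-likelihood test on the summed counts, adjusted by the Benjamini-Hochberg method over all genes tested, and genes with an adjusted p under 0.05 are said to have risen or fallen.

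Sncg fell furthest. It stood at 124.1 and 156.1 CPM in Atoh7 mutants, 2735 and 3071 in Bax mutants, and 190.7 and 186.8 in double mutants. Both Bax mutant libraries lay far above the other 4. Without the cells of shared barcodes the double mutants stood at 166.3 and 105.1 CPM and overlapped the Atoh7 mutants. The log2 fold change was -3.94 (SE 0.15, edgeR adjusted p 7.36e-10) in double mutants and -4.37 (SE 0.15, edgeR adjusted p 4.81e-10) in Atoh7 mutants, compared in both cases with Bax mutants. Sncg had 22447 and 25751 UMIs in Bax mutant ganglion cells and 260 to 555 in those of the other libraries.

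Gap43, the growth cone protein, stood at 1261 and 1645 CPM in Atoh7 mutants, 3152 and 3543 in Bax mutants, and 1223 and 1632 in double mutants. The Atoh7 null groups overlapped each other and lay below both Bax mutant libraries. The 2 libraries of each group differed, and relative to their level most in the Atoh7 null groups. The change against Bax mutants was -1.23 (SE 0.17, edgeR adjusted p 5.48e-05) in double mutants and -1.20 (SE 0.17, edgeR adjusted p 7.92e-05) in Atoh7 mutants.

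The neurofilament pair did not move together. Nefl stood at 571.7 and 714.2 CPM in Atoh7 mutants, 1876 and 1854 in Bax mutants, and 672.3 and 761.6 in double mutants, with Bax mutants again clear of the rest. It changed by -1.38 (SE 0.13, edgeR adjusted p 3.33e-06) in double mutants and by -1.53 (SE 0.13, edgeR adjusted p 1.61e-06) in Atoh7 mutants. Nefm, the medium subunit, stood at 1104 and 1228 CPM in Atoh7 mutants, 1491 and 1523 in Bax mutants, and 1427 and 1539 in double mutants. The double mutant libraries overlapped those of Bax mutants, at a log2 difference of -0.02 (SE 0.12, edgeR adjusted p 0.884). Without the cells of shared barcodes they stood at 1339.7 and 1355 CPM, between both other groups, and the difference from Bax mutants was -0.16 (edgeR adjusted p 0.33). In Atoh7 mutants Nefm was lower by a log2 change of -0.37 (SE 0.12, edgeR adjusted p 0.0196), a call that was lost without Atoh7 mutant replicate 1 (-0.29), without Bax mutant replicate 1 (-0.39) and without Bax mutant replicate 2 (-0.36). The ratio of the 2 genes' changes was not tested, and whether the shared exon bases mixed their counts is not known.

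Among the surface proteins, Nrn1, a lipid-anchored protein that promotes neurite growth, stood at 31.0 and 33.4 CPM in Atoh7 mutants, 93.1 and 92.1 in Bax mutants, and 47.8 and 41.1 in double mutants. Bax mutants were highest, and the double mutants lay above the Atoh7 mutants. Once the cells of shared barcodes were left out, the double mutants stood at 44.0 and 31.3 CPM and overlapped the Atoh7 mutants. Nrn1 changed by -1.06 (SE 0.11, edgeR adjusted p 5.53e-06) in double mutants and by -1.52 (SE 0.12, edgeR adjusted p 6.38e-07) in Atoh7 mutants. Cntn2, an axonal contactin, stood at 51.1 and 60.2 CPM in Atoh7 mutants, 161.7 and 171.2 in Bax mutants, and 62.5 and 69.2 in double mutants. Both Atoh7 null groups lay well under Bax mutants, with changes of -1.34 (SE 0.10, edgeR adjusted p 4.94e-07) in double mutants and -1.57 (SE 0.11, edgeR adjusted p 2.18e-07) in Atoh7 mutants.

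L1cam, which keeps axons in bundles, stood at 45.3 and 43.9 CPM in Atoh7 mutants, 87.7 and 101.9 in Bax mutants, and 46.7 and 48.1 in double mutants. Bax mutants lay above the other groups, which were close to each other. The change was -1.0004 (SE 0.11, edgeR adjusted p 1.28e-05) in double mutants and -1.09 (SE 0.12, edgeR adjusted p 1.01e-05) in Atoh7 mutants. Nrcam, with 25 to 163 UMIs per library in ganglion cells, differed by -0.39 (SE 0.22, edgeR adjusted p 0.161) and -0.21 (SE 0.22, edgeR adjusted p 0.458), and these values did not pass the test. Without double mutant replicate 2 the first was -0.78 and called (edgeR adjusted p 0.025).

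Igfbpl1, the secreted protein, stood at 658.0 and 672.0 CPM in Atoh7 mutants, 1438 and 1599 in Bax mutants, and 601.9 and 616.0 in double mutants. Bax mutants were again highest and the replicates of each group were near each other. The change was -1.32 (SE 0.11, edgeR adjusted p 1.29e-06) in double mutants and -1.19 (SE 0.11, edgeR adjusted p 3.58e-06) in Atoh7 mutants. The 7 tested genes other than Nefm and Nrcam fell in both comparisons under each of the 17 settings tried, which include leaving out any 1 library and leaving out the cells with shared barcodes.

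**Figure D2:**
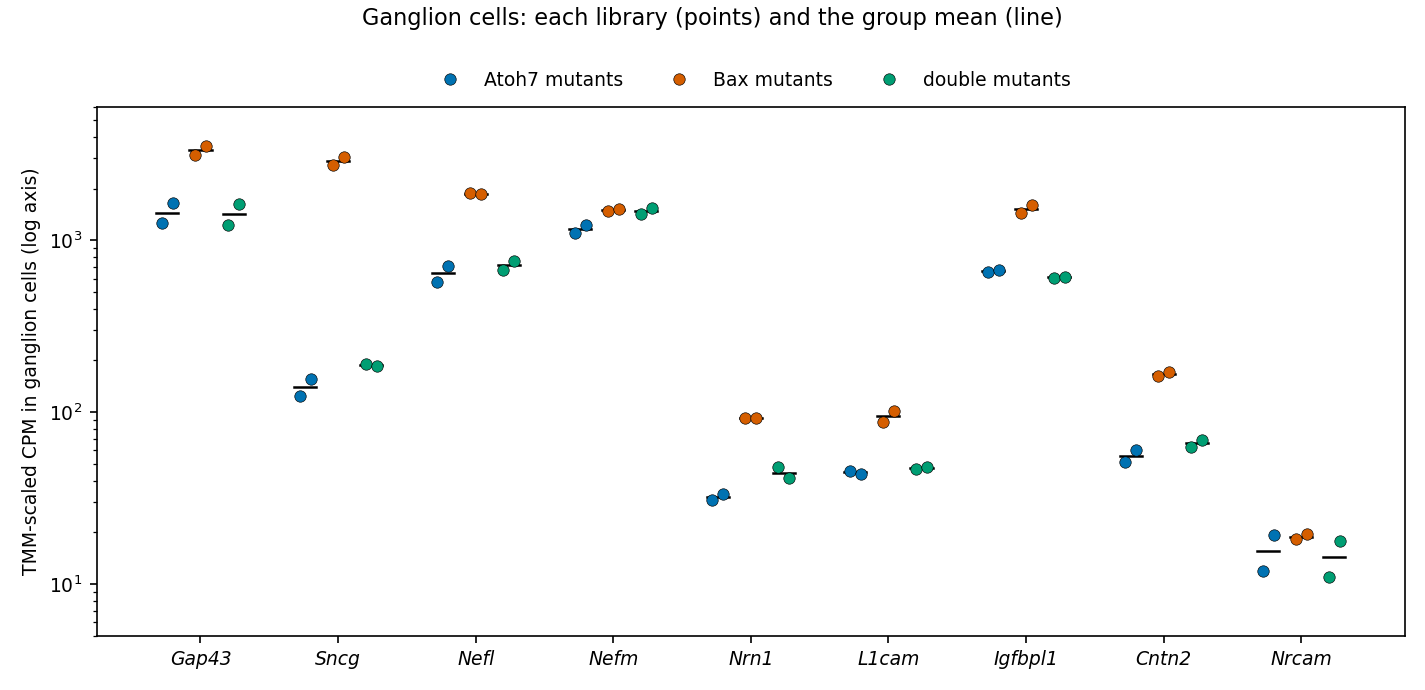
TMM-scaled CPM in ganglion cells (log axis) of the 9 genes with counts to test. Points are libraries and lines are the means of 2. Both Bax mutant points of Sncg, Gap43, Nefl, Nrn1, L1cam, Igfbpl1 and Cntn2 lie above the 4 Atoh7 null points, while those of Nefm and Nrcam lie close to them or overlap.

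The size of these changes depended on the scaling. The TMM factors of the Bax mutant libraries were well below those of the others, and when library totals alone were used, an alternative chosen after seeing the data, the median of all genes in ganglion cells shifted to 0.63 in double mutants against Bax mutants and to 0.50 in Atoh7 mutants against Bax mutants. The share of called genes that were higher then rose from 49.7% to 86.7% and from 49.97% to 84.8%. Of all genes 60.7% and 52.7% were then called higher and 9.31% and 9.43% lower. On this scale Sncg changed by -3.34 and -3.88, Gap43 by -0.62 and -0.71, Nefl by -0.77 and -1.05, and L1cam by -0.39 and -0.60, all still called lower. Nrn1 changed by -0.45 and -1.03, Igfbpl1 by -0.71 and -0.70, and Cntn2 by -0.73 and -1.08, also still called lower. Nefm turned, to 0.59 (edgeR adjusted p 0.000595, called higher, though near the median of all genes) and to 0.12 (edgeR adjusted p 0.384), and Nrcam turned to 0.22 and 0.28, which were not called.

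Markers of other cell types moved with these comparisons. The 6 ganglion markers (Pou4f2, Isl1, Rbpms, Ebf3, Stmn2, Elavl4) all had UMIs in the ganglion cells of every library. By library total they summed to 5089 to 6165 CPM, with both Bax mutant libraries inside the range of the Atoh7 mutants and just below that of the double mutants. That order depends on the scale, which is not the TMM scale of the gene levels. The TMM factors were 0.783 and 0.769 in Bax mutants against 1.08 to 1.21 in the others. Divided by them, the ganglion marker sums of both Bax mutant libraries lie highest. The sums that follow are also by library total and keep their order on the TMM scale. The 6 neurogenic markers, all with UMIs in every library, summed to 990.3 to 1025 CPM in Bax mutant ganglion cells and 1718 to 2131 in the others. The 6 progenitor markers, also all with UMIs, summed to 305.1 to 458.1 against 969.0 to 1278. Of 5 horizontal cell markers 4 or all had UMIs, with Lhx1 at 0 in 4 libraries, and they summed to 514.6 to 521.1 CPM in Bax mutants against 1161 to 1406. The amacrine sum was 12.4 to 12.98 against 100.7 to 133.6, with 2 to all 5 genes detected and Tfap2c at 0 in 3 libraries, both of Bax mutants among them. Red blood cell genes went the other way, with 934.9 to 1109 CPM in Bax mutants and 4.83 to 247.2 elsewhere. They were high in every cell type of the Bax mutant libraries, from 824.3 CPM in neurogenic cells to 1897 in horizontal-labelled cells. The part of these markers in the changes of the axon genes was not tested. In summed samples, fewer cells that express a gene and less RNA of it per cell cannot be told apart.

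Double mutants and Atoh7 mutants, groups that are unlike in Bax on an Atoh7 null background and that lie on the same side of the library split, were closer to each other. None of the 9 tested genes was called in ganglion cells by edgeR, where 2.34% of all genes were called, and DESeq2 also called 0. At an unadjusted p under 0.05 there were 3, namely Sncg, Nefm and Nrn1, all higher in double mutants. Their log2 differences were 0.42 (SE 0.14, edgeR adjusted p 0.183), 0.35 (SE 0.12, edgeR adjusted p 0.192) and 0.46 (SE 0.14, edgeR adjusted p 0.141), and for each gene both double mutant libraries lay above both of the other group. Libraries of these groups lay apart, in either direction, for 6 of the 9 tested genes. The shares of all genes that lay apart, or that had an unadjusted p under 0.05 in any comparison, were not counted. Neither count is therefore a result about these genes. The separation of the libraries was lost for Sncg and Nrn1 without the cells of shared barcodes, at log2 differences of -0.02 and 0.27. It was kept for Nefm, at 0.23. When double mutant replicate 1, the library whose Bax level went partly against its label, was left out, Nefm was called higher by 0.40 (edgeR adjusted p 0.00768). Gap43, Nefl, L1cam, Igfbpl1, Cntn2 and Nrcam differed by -0.03, 0.16, 0.09, -0.13, 0.23 and -0.18 (SE 0.11 to 0.28), and none of these passed the test.

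Counting cells rather than molecules separated the genes further. Each cell was thinned to 1000 UMIs, which left out 0 to 80 ganglion cells per library, and a cell was counted when at least 1 UMI of the gene remained. Gap43 was found in 63.1% and 74.1% of ganglion cells in Atoh7 mutants, 63.0% and 63.6% in Bax mutants, and 65.0% and 73.4% in double mutants. These shares overlapped between all 3 genotypes, although both Bax mutant libraries had the highest level of Gap43. Sncg was found in 7.95% and 7.95%, 44.5% and 46.8%, and 11.9% and 10.8% of ganglion cells, and Nefl in 23.2% and 28.2%, 49.1% and 50.4%, and 30.9% and 30.6%. Both Bax mutant libraries had the highest shares of these 2 genes by a wide margin. Without the cells of shared barcodes the double mutant shares were 9.89% and 7.79% for Sncg and 28.2% and 26.4% for Nefl, which overlapped those of Atoh7 mutants.

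Nefm was found in 29.7% and 34.8% of ganglion cells in Atoh7 mutants, 47.4% and 47.8% in Bax mutants, and 37.8% and 39.6% in double mutants. Both Bax mutant libraries were highest in this share. With the shared-barcode cells left out the double mutants had 34.4% and 34.8% and lay between the 2 libraries of the Atoh7 mutants. Igfbpl1 was found in 44.2% and 45.5%, 57.8% and 63.1%, and 45.6% and 45.0%, and Cntn2 in 4.20% and 5.59%, 10.1% and 12.01%, and 6.90% and 5.45%. In retinal progenitor cells, which should lack most of these transcripts, the thinned shares were 1.80% to 2.87% for Gap43, 0.0761% to 0.693% for Sncg, 0.289% to 0.456% for Nefl, 0.318% to 1.13% for Nefm and 0.502% to 0.979% for Igfbpl1. Median depths before thinning were 1833.5 to 6683 UMIs in ganglion cells and 1713 to 6977 in progenitors. Without thinning, Sncg was found in 55.6% and 58.7% of Bax mutant ganglion cells and 11.8% to 17.1% of the others, and Gap43 in 79.97% to 89.6% of all 6. Nrn1, L1cam and Nrcam reached at most 6.07% after thinning, and the Nrcam share was 1.199% to 2.13% in ganglion cells and 1.37% to 2.79% in progenitors.

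The 10 genes were also counted per cell. After thinning, an average ganglion cell had a UMI of 1.80 and 2.05 of the genes in Atoh7 mutants, 2.85 and 2.96 in Bax mutants, and 2.11 and 2.17 in double mutants. Cells with 4 or more of them made up 15.3% and 18.2%, 45.5% and 46.2%, and 22.0% and 21.2% in the same order, whereas cells with none were similar, at 11.6% to 18.3%. Without the cells of shared barcodes the double mutants had 1.99 and 2.04 genes per cell and 20% and 18.0% of cells with 4 or more. The Bax mutants thus stood out in cells with several of the genes, while the shares of cells with none overlapped.

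**Figure D3:**
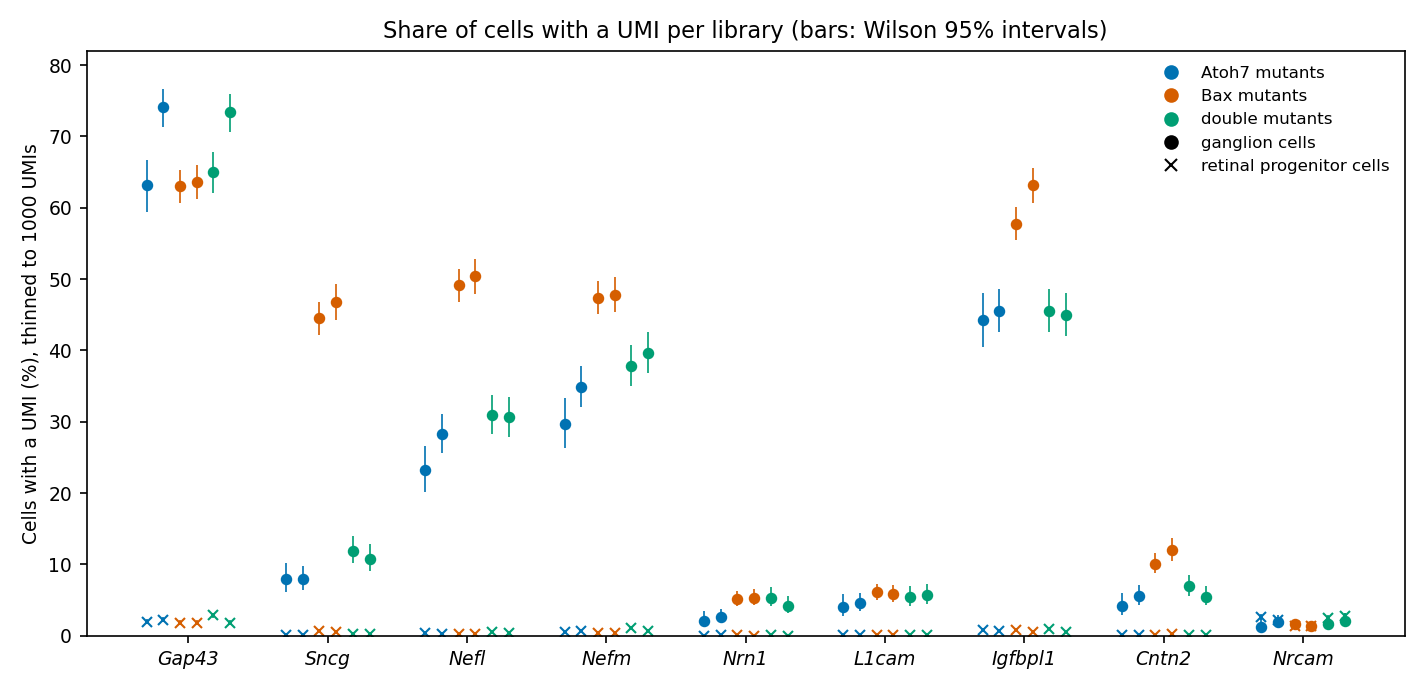
Share of cells (%) with at least 1 UMI of each gene after thinning to 1000 UMIs, per library, in ganglion cells (circles) and retinal progenitor cells (crosses), with Wilson 95% intervals that cover counting error only. Sncg reaches 44.5% and 46.8% in Bax mutant ganglion cells and 7.95% to 11.9% in the others, whereas the Gap43 shares overlap.

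The third question was whether the genes moved in the same way in neurogenic cells, the cells leaving the cell cycle from which ganglion cells come and in which Atoh7 is expressed. Not all of them did. Sncg, Nefl and Cntn2 fell in both cell types in both comparisons with Bax mutants, with less stable neurogenic calls for Nefl and Cntn2. Gap43 fell in ganglion cells and rose in neurogenic cells. In double mutants compared with Bax mutants, 8 of the 10 genes were tested in neurogenic cells. Of these, 3 rose and 3 fell, beside 23.5% of 11670 genes called higher and 23.8% called lower. The other comparison, of Atoh7 mutants with Bax mutants, had 2 that rose and 3 that fell, beside 23.4% and 23.8%. EdgeR and DESeq2 called 0 of 8 between the Atoh7 null groups (1 gene, Nefm, at an unadjusted p under 0.05), where edgeR called 1.77% of all genes.

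Gap43 went in the opposite direction to its change in ganglion cells. In neurogenic cells it stood at 73.1 and 94.9 CPM in Atoh7 mutants, 41.9 and 45.9 in Bax mutants, and 81.6 and 100.5 in double mutants. Both Bax mutant libraries were lowest. Gap43 rose by 1.05 (SE 0.14, edgeR adjusted p 9.13e-05) in double mutants and by 0.94 (SE 0.14, edgeR adjusted p 0.000226) in Atoh7 mutants, under each setting tried. After thinning, Gap43 was found in 2.94% and 2.65% of Bax mutant neurogenic cells and 6.94% to 9.45% of the others, against 1.80% to 2.87% of progenitors. The Bax mutant shares were thus close to those of progenitors. The summed ganglion markers moved with this. By library total they stood at 258.1 to 269.8 CPM in Bax mutant neurogenic cells and 583.3 to 741.1 in the others. They were not alone. The neurogenic markers summed to 2902 to 3298 against 5487 to 6660. The cone, horizontal and amacrine sums were also lowest in Bax mutants. The progenitor sums overlapped, and red blood cell genes were higher in Bax mutants. The TMM factors were 0.779 and 0.771 in Bax mutants and 1.099 to 1.203 in the others. Divided by them, the ganglion sums of Bax mutants stay lowest, by a smaller margin. The part of these markers in the rise of Gap43 was not tested.

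Sncg fell in neurogenic cells as it did in ganglion cells, but at a level near that of progenitors. It stood at 1.18 and 0.464 CPM in Atoh7 mutants, 8.94 and 14.8 in Bax mutants, and 2.19 and 0.941 in double mutants, from 3 to 161 UMIs per library. The change was -2.86 (SE 0.39, edgeR adjusted p 0.000113) in double mutants and -3.87 (SE 0.45, edgeR adjusted p 4.16e-05) in Atoh7 mutants. Expressed as a share of the ganglion level of the same library, the neurogenic level of Sncg was 0.301% to 1.12% and the progenitor level 0.211% to 1.13%. The part of free RNA in these levels was not tested.

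The remaining neurogenic calls were smaller and less stable. Nefl changed by -1.002 (SE 0.28, edgeR adjusted p 0.0104) in double mutants and by -0.86 (SE 0.27, edgeR adjusted p 0.0205) in Atoh7 mutants on the log2 scale, and with likely doublets left out the differences were -0.13 and -0.20 and were not called. Both calls were also lost without Bax mutant replicate 1, and the second without any other library of the groups compared. Cntn2, with 3 to 35 UMIs per library, changed by -1.81 (SE 0.46, edgeR adjusted p 0.00647) and -1.84 (SE 0.45, edgeR adjusted p 0.00582), calls lost without Bax mutant replicate 2. The first was also lost with DESeq2 and without double mutant replicate 1 and the second without Atoh7 mutant replicate 2. Nrcam rose by 0.52 (SE 0.15, edgeR adjusted p 0.0161) and 0.55 (SE 0.15, edgeR adjusted p 0.011). These calls were lost with DESeq2 and without Bax mutant replicate 1, and 1 each was lost without double mutant replicate 1 and Atoh7 mutant replicate 2. Nefm rose in double mutants alone, by 0.53 (SE 0.18, edgeR adjusted p 0.0261), and was 0.19 and not called without replicate 1 of that group and 0.36 and not called without the cells of shared barcodes. Without Bax mutant replicate 2 it was 0.40 and not called. L1cam differed by 0.17 and 0.40 and Igfbpl1 by -0.17 and -0.10, which did not pass the test. With library totals alone L1cam (0.75 and 0.91) and Igfbpl1 (0.42 in both) were called higher, as were 60.4% and 54.7% of all genes.

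The difference between the cell types was tested directly, as the change in ganglion cells minus that in neurogenic cells of the same libraries. Of the 9 tested genes 6 were called in double mutants against Bax mutants, all with a lower value in ganglion cells, where 8.72% of 12348 genes were called lower and 8.02% higher. Gap43 had the largest, -2.28 (SE 0.08, edgeR adjusted p 7.2e-32), and Igfbpl1 differed by -1.14 (SE 0.09, edgeR adjusted p 7.81e-16). In Atoh7 mutants against Bax mutants 6 were called lower, beside 9.1% of all genes lower and 7.09% higher, with Gap43 at -2.17 (SE 0.08, edgeR adjusted p 1.47e-30), L1cam at -1.52 (SE 0.28, edgeR adjusted p 3.87e-05) and Igfbpl1 at -1.13 (SE 0.09, edgeR adjusted p 8.24e-16). These 5 values were called under each of the 14 settings. Sncg (-1.07), Nefm (-0.56), L1cam (-1.16) and Nrcam (-0.90) in the first comparison were each lost without double mutant replicate 1, at -0.29, -0.16, -1.01 and -0.46. In the second, Nefl (-0.70), Nefm (-0.47) and Nrcam (-0.81) were each lost without Atoh7 mutant replicate 1, at -0.55, -0.38 and -0.55. Nefl was also lost without Bax mutant replicate 2 and Nefm without Bax mutant replicate 2 or Atoh7 mutant replicate 2. Cntn2 and Nrn1 were called in neither comparison. Between the Atoh7 null groups edgeR called 0 of 9, with 0 at an unadjusted p under 0.05 and 0.0243% of all genes called.

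**Figure D4:**
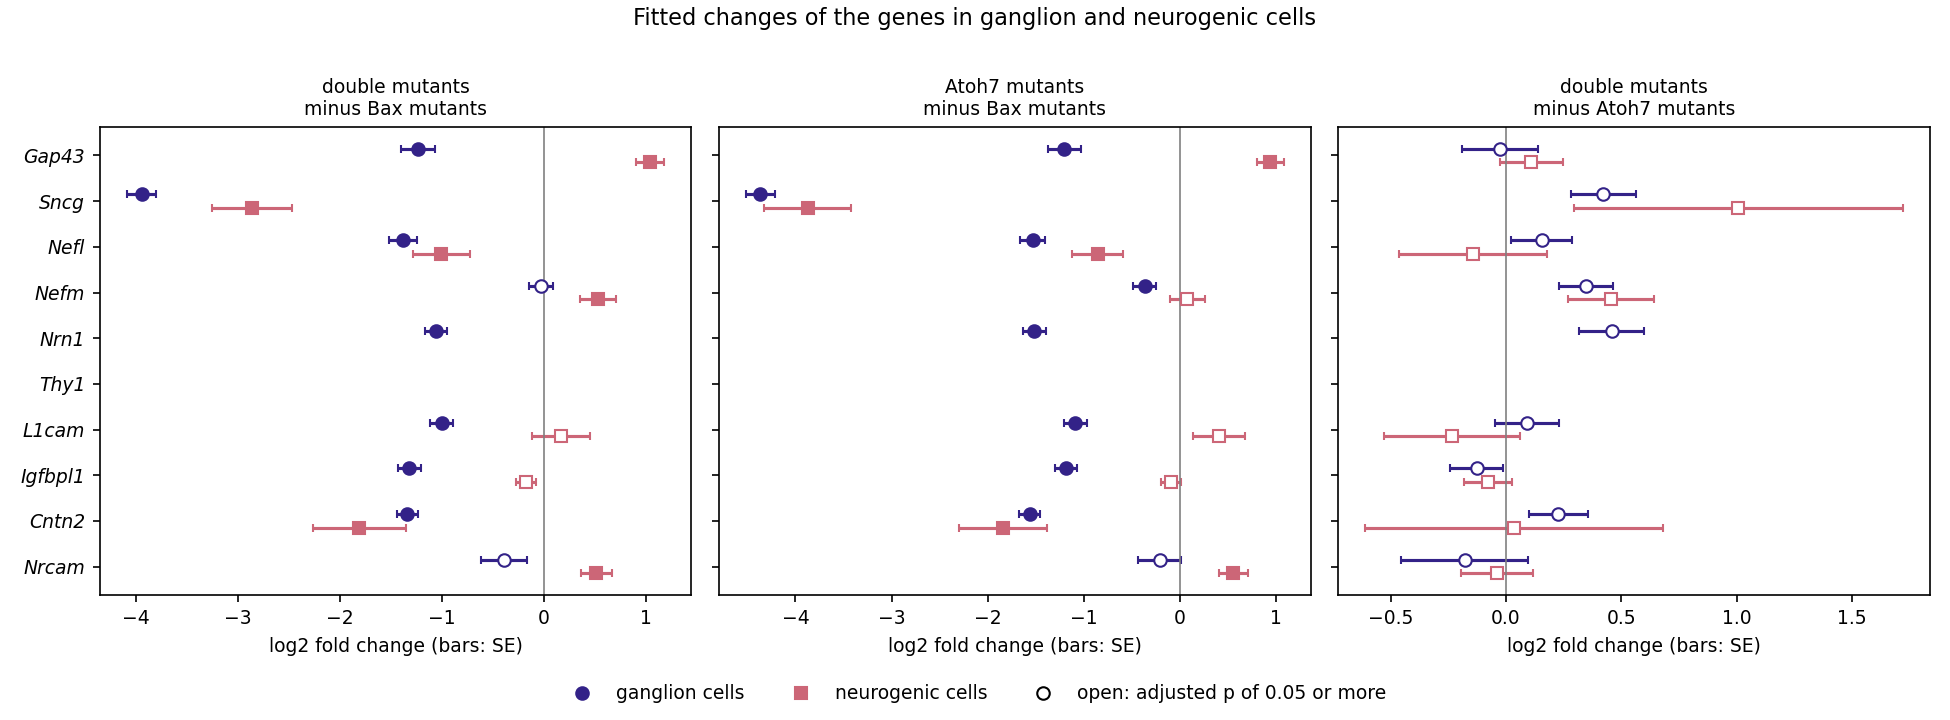
Log2 fold change (points) and its SE (bars) in ganglion cells (circles) and neurogenic cells (squares) for the 3 comparisons, with open symbols where the edgeR adjusted p was 0.05 or more. Gap43 lies at -1.23 in ganglion cells and 1.05 in neurogenic cells for double mutants minus Bax mutants, and the third panel has its own narrower axis and no filled symbol.

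In retinal progenitor cells, where each tested gene but Nrcam stood lowest or next to lowest of the 5 types, few calls held under every setting. Of 8 tested genes 2 rose and 3 fell in double mutants against Bax mutants, beside 26.8% and 27.1% of 13396 genes, and 1 rose and 4 fell in Atoh7 mutants against Bax mutants, beside 26.6% and 26.5%. Nrcam, which was highest in these cells in both Atoh7 null groups, rose by 0.36 (SE 0.09, edgeR adjusted p 0.00971) and 0.41 (SE 0.09, edgeR adjusted p 0.00499), and both calls were lost without Bax mutant replicate 2. Sncg fell, at -2.10 and -2.53, under every setting, from the low levels described above. Igfbpl1 fell, at -0.76 and -0.71, as did Cntn2, at -1.28 and -1.37, and these calls were lost with library totals alone and, for Cntn2, without Bax mutant replicate 2. Without Atoh7 mutant replicate 2 the second Igfbpl1 call was lost, and the first Cntn2 call was lost with DESeq2 or without double mutant replicate 1 and the second without Atoh7 mutant replicate 1. Nefm rose by 0.82 in double mutants, a value that was 0.13 and not called without its replicate 1 and was also lost without any other single library except double mutant replicate 2. L1cam fell by 0.84 in Atoh7 mutants and was lost without either library of that group or of Bax mutants.

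The change in ganglion cells minus that in progenitors was lower for 6 of 9 genes in both comparisons with Bax mutants, beside 7.53% of 13670 genes lower and 8.15% higher in double mutants and 7.81% and 7.4% in Atoh7 mutants. Gap43 differed by -1.17 (SE 0.11, edgeR adjusted p 1.12e-11) and -1.01 (SE 0.11, edgeR adjusted p 1.13e-09), called under each setting. Between the Atoh7 null groups edgeR called 0 of 8 genes in progenitors and 0 of 9 in the difference from ganglion cells, with 0 at an unadjusted p under 0.05 in both and 2.01% and 0.102% of all genes called. DESeq2, which was run within cell types, also called 0 in progenitors. Without double mutant replicate 2 the counts were 1 in progenitors and 2 in the difference.

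Cones and horizontal-labelled cells carried most of these genes at intermediate levels, with Nrcam at its lowest there, at group means of 6.998 to 10.9 CPM, and Thy1 near 0. In cones 4 of 8 tested genes fell in both comparisons with Bax mutants and 0 rose, beside 15.6% of 9421 genes lower and 12.5% higher in double mutants and 14.8% and 12.7% in Atoh7 mutants. DESeq2 called 0 of them in either comparison, and without Bax mutant replicate 1 the counts were 1 and 0. Cntn2 had the largest change, -2.45 (SE 0.60, edgeR adjusted p 0.00403) and -2.35 (SE 0.57, edgeR adjusted p 0.0045), from 2 to 16 UMIs per library. In horizontal-labelled cells 1 of 7 rose and 3 fell in both comparisons, beside 13.5% and 15.7% of 8960 genes higher and lower in double mutants and 14.3% and 15.8% in Atoh7 mutants.

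Nefm was the gene that rose in horizontal-labelled cells. It stood at 123.6 and 114.7 CPM in Atoh7 mutants, 66.6 and 42.9 in Bax mutants, and 112.1 and 119.7 in double mutants, so that both Bax mutant libraries lay below the other 4. The change was 1.09 (SE 0.18, edgeR adjusted p 0.000143) and 1.12 (SE 0.18, edgeR adjusted p 9.23e-05), called under every setting. Marker sums in these cells are given in CPM by library total, unlike the level of Nefm. The 5 horizontal cell markers, all with UMIs except Calb1 at 0 in Bax mutant replicate 2, summed to 1196 to 1217 in Bax mutants and 1699 to 2080 in the others. The 5 amacrine markers, all detected, summed to 1045 to 1062 against 1204 to 1628, and the 5 cone markers, all detected, to 189.3 to 226.0 against 62.6 to 114.9. The TMM factors were 0.803 and 0.796 in Bax mutants and 1.07 to 1.18 in the others. Divided by them, the amacrine sums of Bax mutants and double mutants overlap. The horizontal sums of Bax mutants stay lowest, by a smaller margin, and their cone sums stay highest. The part of these markers in the change of Nefm was not tested. Igfbpl1 fell in the same cells, at -1.19 (SE 0.17, edgeR adjusted p 1.83e-05) and -0.96 (SE 0.16, edgeR adjusted p 0.00014), also under every setting. Sncg fell, at -2.71 and -3.31, as did Gap43, at -0.78 and -0.49. The Gap43 calls were lost with library totals alone, the second also with DESeq2 and without Atoh7 mutant replicate 1 or Bax mutant replicate 1. Comparing the Atoh7 null groups, edgeR and DESeq2 called 0 genes in cones and in horizontal-labelled cells, 0 at an unadjusted p under 0.05, where 1.46% and 1.61% of all genes were called. Without the cells of shared barcodes 1 gene was called in cones.

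The authors had divided ganglion cells into 20 clusters, and the genes were distributed over them unevenly. Since the clusters were made from the same counts, these values are descriptions without a test, in CPM by total over all cells of a cluster, pooled over genotypes, so that the mix of genotypes in a cluster enters each value. Sncg ranged from 1.74 to 6652 CPM over the clusters with a median of 423.0, Gap43 from 50.2 to 5803 (median 1705), Nefl from 5.26 to 2802 (median 1228) and Nefm from 18.1 to 2730 (median 1383). Igfbpl1 varied over a narrower range, at 291.1 to 2203 CPM with a median of 815.8. Over the 20 clusters, which share libraries and differ in depth, log2 levels of Nefl and Nefm went together (Pearson r 0.98), as did Gap43 and L1cam (r 0.98), while Igfbpl1 had an r of -0.01 to 0.74 with the others.

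Genotypes occupied different clusters. With the groups weighted equally, Bax mutants made up under 20% of 6 clusters (46, 53, 62, 63, 90 and 129), which held 84.4% of Atoh7 mutant and 81.7% of double mutant ganglion cells and 9.46% of those of Bax mutants. They made up over 80% of 8 clusters (19, 67, 70, 75, 89, 92, 121 and 131), with 2.20%, 4.01% and 55.1% of the ganglion cells in the same order. The median Sncg level was 24.4 CPM over the first 6 clusters and 4061 over the 8, and the medians of Gap43 were 1574 and 4249 CPM. The median of Nefm was 448.8 and 1439 CPM. The clusters named here bear on every ganglion comparison above, because the genotypes did not fill the same ones.

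Nefm was compared within genotypes for clusters 9, 62, 63, 90 and 100, which held at least 50 cells of each. In cluster 9 it stood at 3772 CPM in Atoh7 mutants, 2672 in Bax mutants and 4119.5 in double mutants on the TMM scale. Cluster 62, with 666 cells, stood at 2409, 2227 and 2826 CPM in the same order. Cluster 9 was thus higher than cluster 62 in each genotype, and Bax mutants were lowest in both. Pooled over genotypes, cluster 62 held 2293 CPM of Gap43 and 525.5 of Igfbpl1. Cluster 121, with 167 cells, stood at 5803 CPM of Gap43 and 6379 of Sncg, and 96.6% of it was from Bax mutants with groups weighted equally. Some clusters carried the ganglion label with little of the axon genes. Cluster 44 had 50.2 CPM of Gap43 and 18.1 of Nefm, and cluster 92 had 157.9 and 27.1. With groups weighted equally, Bax mutants made up 74.4% and 86.7% of them. Clusters 53 and 90 had Bax mutant shares of 1.81% and 7.38%. They stood at 1.74 and 11.9 CPM of Sncg and 32.6 and 31.97 of Nefl. Their Gap43 was higher than in clusters 44 and 92, at 777.6 and 601.6 CPM. Clusters 53 and 90 held 16.7% and 13.9% of Atoh7 mutant ganglion cells and 17.1% and 10.7% of those of double mutants.

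**Figure D5:**
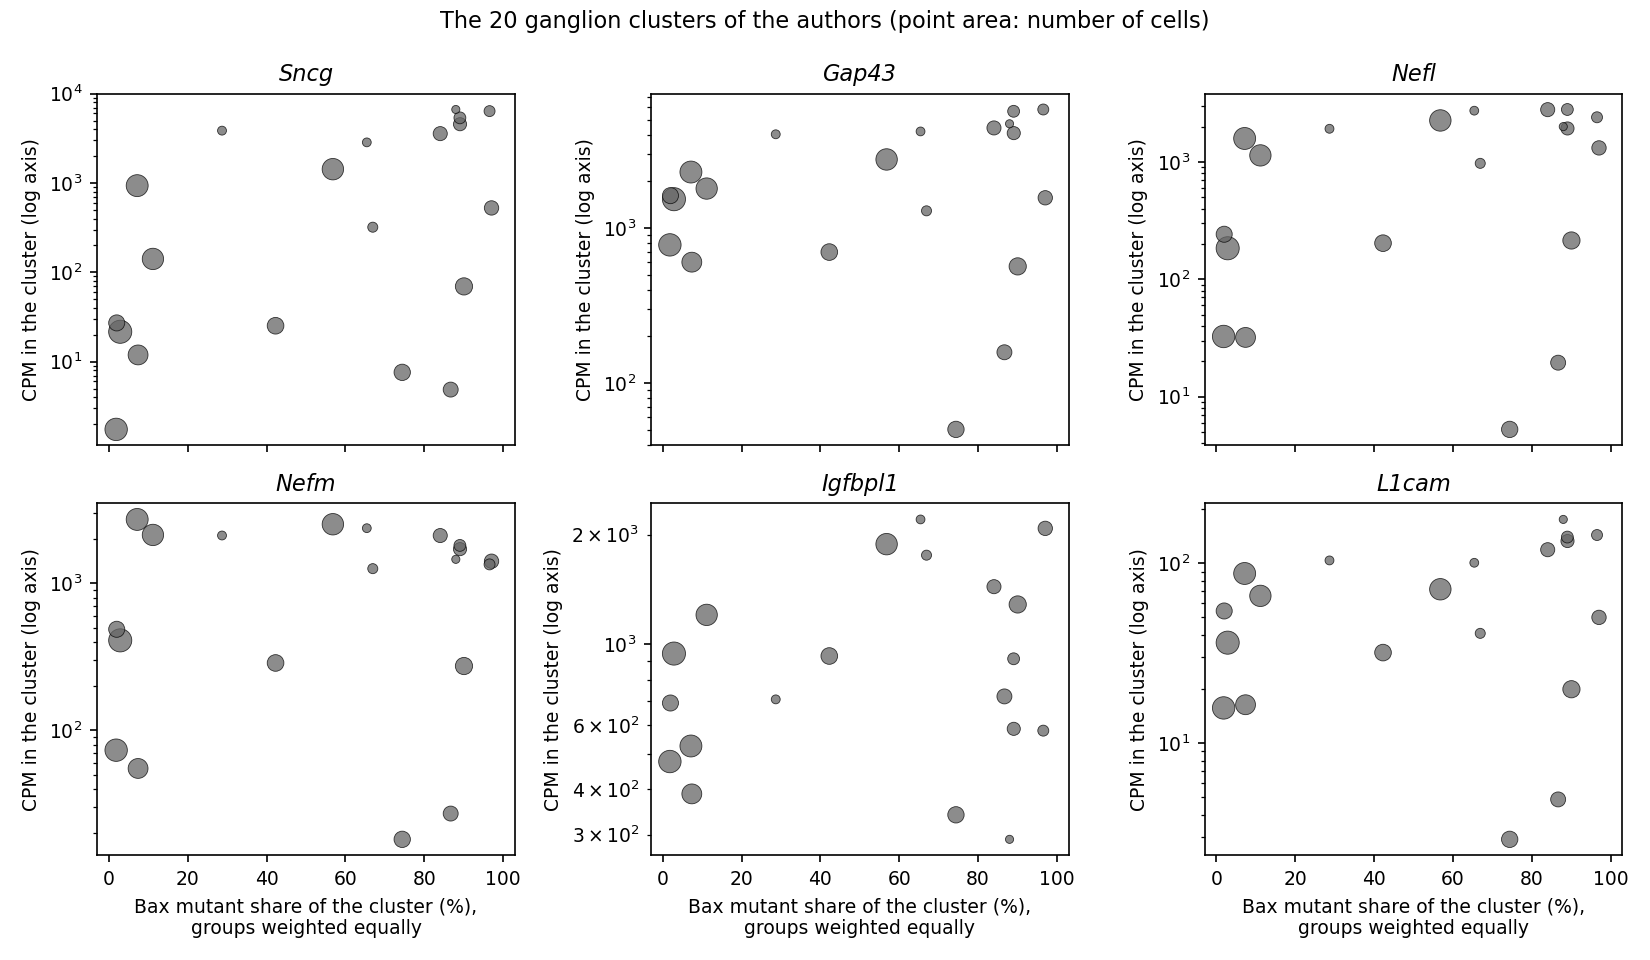
CPM (log axis) of 6 genes in the 20 ganglion clusters against the Bax mutant share of each cluster (%), with groups weighted equally and point area proportional to the number of cells. The 4 highest Sncg values lie at Bax mutant shares over 80%, whereas Nefm reaches 2730 CPM at a share of 7.15% and 2531 CPM at 56.8%. Values are pooled over genotypes.

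Of the 20 clusters, 5 held at least 50 cells of both double mutants and Bax mutants, with 49.2% and 26.8% of their ganglion cells. Within them, on the TMM scale, Sncg was lower in double mutants in 5 of 5 clusters with a median log2 ratio of -2.13, Igfbpl1 in 5 of 5 (-1.05) and Cntn2 in 5 of 5 (-0.85). Nefl was lower in 4 of 5 (-0.46). Nrn1 was lower in 3 of 5 with a median of -0.58 and a range of -4.80 to 1.36. Gap43 was lower in 3 of 5 with a median of -0.05, and L1cam in 3 of 5 with a median of -0.08. Nefm was higher in 4 of 5 with a median of 0.62, as was Nrcam (0.75). Sncg, Igfbpl1 and Cntn2 thus kept 1 direction inside the shared clusters. The medians of these genes and of Gap43, L1cam, Nefl and Nrn1 were all smaller in size than their changes over all ganglion cells. When cells of shared barcodes were left out, L1cam was lower in 1 of 5 (median 0.13), Nrn1 lower in 4 (-0.51), and Nefm higher in 5 (0.71) and Nrcam in 3 (0.64). In neurogenic cells, where 18 of 27 clusters met the same minimum, Gap43 was higher in 13 with a median of 0.88, and in 11 with a median of 0.61 without the cells of shared barcodes.

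Other genes of the same structures were counted in ganglion cells from 3 lists. Of 16 growth cone and axon proteins, all tested, 6 rose and 6 fell in double mutants against Bax mutants, and 5 rose and 5 fell in Atoh7 mutants against Bax mutants, with median log2 changes of -0.07 and -0.11. Of 20 adhesion molecules and their membrane skeleton 16 were tested, and 2 rose and 9 fell in the first comparison and 3 rose and 9 fell in the second, with medians of -0.42 and -0.41. Of 5 intermediate filaments other than Nefl and Nefm 4 were tested, and 1 rose and 2 fell in both, with medians of -0.03 and -0.15. Over all genes the medians were 0.02 and 0.01, with 26.2% called higher and 26.5% lower in the first comparison and 25% each way in the second. These lists therefore held changes in both directions, and nothing particular to them was tested.

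Ablim1, which links actin to other proteins, stood at 13.8 and 13.7 CPM in Atoh7 mutants, 57.1 and 68.3 in Bax mutants, and 13.1 and 12.01 in double mutants. It was high in both Bax mutant libraries alone, and it fell, with log2 changes of -2.32 (SE 0.16, edgeR adjusted p 1.84e-07) in double mutants and -2.18 (SE 0.16, edgeR adjusted p 4.00e-07) in Atoh7 mutants. Prph, the intermediate filament peripherin, fell, at -2.26 and -2.35, from at most 6.80 CPM, and the second value was -3.60 without Atoh7 mutant replicate 2 and -1.86 without replicate 1. Tmsb10, an actin-binding thymosin, stood at 12685 and 13826 CPM in Bax mutants and 3520 and 2074 in double mutants, a change of -2.24 (SE 0.22, edgeR adjusted p 3.13e-06). Alcam, an adhesion molecule, fell by 2.35 in Atoh7 mutants from at most 9.504 CPM, with values of -3.17 and -1.66 without replicate 1 and replicate 2 of that group.

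Gpm6a, a membrane glycoprotein of neuronal processes, stood at 343.1 and 341.4 CPM in Atoh7 mutants, 78.8 and 86.7 in Bax mutants, and 233.3 and 333.8 in double mutants. It was lowest in both Bax mutant libraries and rose by 1.77 (SE 0.14, edgeR adjusted p 6.06e-07) and 2.05 (SE 0.14, edgeR adjusted p 2.08e-07). Its relative Gpm6b rose by 1.04 and 1.16. Nes, the intermediate filament of neural progenitors, rose by 1.04 in double mutants, and Cntn1, a contactin like Cntn2, rose by 0.97 in Atoh7 mutants. With library totals alone Gpm6b and Nes stood at 1.65 and 1.64 in double mutants.

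Between the Atoh7 null groups 2 of the 16 growth cone and axon genes fell, and 0 of the 16 adhesion and 0 of the 4 filament genes were called by edgeR or by DESeq2 (2 and 1 at an unadjusted p under 0.05), beside 2.34% of all genes called by edgeR. Tmsb10 stood at 4976 and 5901 CPM in Atoh7 mutants, above both double mutant libraries. It fell by 0.96 (SE 0.21, edgeR adjusted p 0.0297). Dpysl2, a partner of tubulin in axon growth, fell by 0.52 (SE 0.12, edgeR adjusted p 0.0389). In each gene both libraries of 1 group lay below both of the other. These calls held in 11 and 10 of 17 settings. Both were lost without Atoh7 mutant replicate 2 (-0.82 and -0.34), without either Bax mutant library and without the cells of shared barcodes (-0.89 and -0.47), and Tmsb10 also without Atoh7 mutant replicate 1. Without double mutant replicate 2 Tmsb10 was at -0.63 and still called.

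The genes whose levels were most like each of the 10 were found over the 30 sums of 6 libraries and 5 cell types, as the Pearson r of log2(CPM + 1) among the reported genes with a mean of at least 20 CPM. Gap43 was most like Uchl1 (r 0.98) and Elavl4 (0.98), L1cam like Uchl1 (0.98) and Nsg2 (0.97), and Igfbpl1 like Elavl4 (0.97) and Ebf1 (0.95). Sncg was most like Oaz2 (0.91) and S100a10 (0.90), Nefl like Gng3 (0.96) and Meis3 (0.96), and Cntn2 like Isl1 (0.95) and S100a10 (0.92). Nefm was most like Ubash3b (0.97) and Nrxn2 (0.96), and Nrn1 like Nrp1 (0.94) and Map1b (0.93). Nrcam had no partner as close, with Fsd1l at 0.86 and Atic at 0.83, and Thy1 reached 0.55 with Exosc1 and 0.48 with Lamtor1. The sums share libraries and depth, so these values are descriptions only.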

How the data were processed

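Single cells of 6 embryonic retina libraries were analysed, 67050 of the 93128 cells in the deposited matrix, and the 26078 cells of 2 other libraries were not used. The deposited values are raw UMI counts of 27998 genes, which the authors made with Cell Ranger 1.2.1 and mm10, per the submitters' processing notes. How cells were filtered, clustered and labelled is not given in the sources used here. Counts were summed per library and cell type. Genes were kept by filterByExpr, scaled by TMM and tested with edgeR 4.0.16 (quasi-likelihood, 1 fit per cell type on all 6 libraries) in R 4.3.3, with Benjamini-Hochberg adjustment over all genes and a threshold of 0.05. Differences between cell types were interaction terms in a fit with library terms.

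The 10 genes and the lists were chosen with earlier results of these data known. Other genes are named by rule: per comparison up to 3 called list genes at each end of the order of changes, and the 2 genes most like each of the 10. A pair of genes is not reported here and was left out of the lists and of this ranking. Likely doublets (8% per library, 5364 cells) stayed in, and leaving them out was an alternative, as were other scaling, DESeq2 1.42.0, other filters, thinned counts and each library left out. Library totals alone, and leaving out cells of shared barcodes, were added after seeing the data. On simulated ganglion counts 98% of genes changed 2-fold and 83% of those changed 0.5-fold were recovered (10415 genes). The changed genes were few and well counted, and the same spread was used for every gene. These shares therefore do not carry over to genes with low counts or to a shift of many genes. Intervals and floors (3 counts) cover counting error only. Positions are from GENCODE mouse release 21.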

Additional observations from a re-analysis of the deposited data

Results flagged for a closer look

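The effect of genotype differed between cell types by an interaction test for these genes, given as the log2 change in ganglion cells minus that in the other cell type. Against neurogenic cells, in double mutants minus Bax mutants, the values were -2.28 for Gap43, -1.07 for Sncg, -0.56 for Nefm, -1.16 for L1cam, -1.14 for Igfbpl1 and -0.90 for Nrcam. In Atoh7 mutants minus Bax mutants they were -2.17 for Gap43, -0.70 for Nefl, -0.47 for Nefm, -1.52 for L1cam, -1.13 for Igfbpl1 and -0.81 for Nrcam.

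Against retinal progenitor cells, in double mutants minus Bax mutants, the values were -1.17 for Gap43, -1.82 for Sncg, -1.18 for Nefl, -0.85 for Nefm, -0.54 for Igfbpl1 and -0.74 for Nrcam. In Atoh7 mutants minus Bax mutants they were -1.01 for Gap43, -1.85 for Sncg, -0.93 for Nefl, -0.77 for Nefm, -0.48 for Igfbpl1 and -0.62 for Nrcam. Without double mutant replicate 1 the differences of Nefl (-0.63), Nefm (-0.08), Igfbpl1 (-0.12) and Nrcam (-0.52) from progenitors in that group were no longer called, and without Atoh7 mutant replicate 1 those of Nefm (-0.62), Igfbpl1 (-0.39) and Nrcam (-0.38) in the other were not. Without Bax mutant replicate 2 the last was also lost (-0.54).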

How the results depend on the processing

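Of 1405 recomputed values of the genes, 1236 kept their direction and their side of the threshold, 138 were no longer called, 6 became called and 25 changed sign, 3 of them values that had been called. With library totals alone, Nefm in ganglion cells was 0.59 and 0.12 and Nrcam 0.22 and 0.28 (double mutants, then Atoh7 mutants, minus Bax mutants), Gap43 between the Atoh7 null groups 0.10, and Igfbpl1 in neurogenic cells 0.42 in both comparisons with Bax mutants. In ganglion cells, Nefm in double mutants minus Bax mutants was 0.038 with doublets left out, 0.0016 with counts thinned to the smallest total and -0.081 to 0.031 with 1 library left out. Nrcam in Atoh7 mutants minus Bax mutants was -0.67 to 0.039 with 1 library left out. Between the Atoh7 null groups Gap43 was -0.25 to 0.19 and Nrcam -0.56 to 0.27 with 1 library left out, and without shared-barcode cells Sncg was -0.018 and Nefl -0.015. In neurogenic cells L1cam in double mutants minus Bax mutants was -0.39 with thinned counts and -0.030 to 0.44 with 1 library left out. In Atoh7 mutants minus Bax mutants Nefm was -0.074 with thinned counts and -0.052 to 0.20 with 1 library left out, and Igfbpl1 was 0.14 with doublets left out and -0.21 to 0.019 with 1 library left out. With doublets left out, Nefl in cones was 0.22 and 0.79. The causes were not tested.

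The number of the genes called fell in neurogenic cells from 6 to 3 with DESeq2 and with thinned counts (double mutants minus Bax mutants) and from 5 to 3 with thinned counts (Atoh7 mutants minus Bax mutants). In cones it fell from 4 to 0 with DESeq2, 2 with doublets left out and 2 with thinned counts in the first comparison and from 4 to 2 with library totals alone, 0 with DESeq2 and 1 with doublets left out in the second, and it was 1 instead of 0 between the Atoh7 null groups without shared-barcode cells. With thinned counts the 6 differences from neurogenic cells became 2 and 3, and the 6 from progenitors 3 and 1.

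With 1 library left out the counts in double mutants minus Bax mutants were 7 to 8 in ganglion, 3 to 6 in neurogenic, 2 to 5 in progenitor and 4 to 5 in horizontal-labelled cells and 1 to 6 in cones. In Atoh7 mutants minus Bax mutants they were 7 to 8, 2 to 5, 3 to 8, 3 to 4 and 0 to 6. Between the Atoh7 null groups they were 0 to 1 in ganglion and in progenitor cells. The differences from neurogenic cells were 2 to 7 and 3 to 6, those from progenitors 2 to 6 and 3 to 6, and between the Atoh7 null groups 0 to 2. All genes called in ganglion cells numbered 5580, 5297 and 248 (double mutants, then Atoh7 mutants, minus Bax mutants, and then between the Atoh7 null groups), and 3974 to 7412, 3724 to 6576 and 73 to 438 over all alternatives.

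Libraries with the same replicate number did not deviate together in every pair of groups (correlations of -0.17 to 0.38 over genes), so the numbers were not taken as pairs. With the replicate number as a block 7, 8 and 0 of the genes were called in ganglion cells, with Gap43 at -1.24 and -1.22 against Bax mutants, and 5673, 5415 and 326 of all genes. Low counts limit Thy1, Nrn1 and Cntn2 outside ganglion cells.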
